A study of Mus musculus with 7 samples.

Results

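CXCR4 and CXCL12 signalling and its desensitization were followed through 8 genes in mouse bone marrow. They are the ligand gene Cxcl12, the ligand-trimming protease gene Dpp4, the receptor genes Cxcr4 and Ackr3, the G protein gene Gnai2, the receptor kinase gene Grk6 and the arrestin genes Arrb1 and Arrb2. Members were taken by gene symbol, each through its 1 Ensembl gene in GENCODE M21, from a table of 49315 genes. All 8 were among the 17920 genes tested. The 4 KO libraries came from mice lacking the microRNA cluster miR-181a2b2 (miR-181a2b2-/-). The 3 flox libraries came from mice with a floxed cluster (miR-181a2b2flox/flox). Both groups were fed chow and had hindlimb ischemia, a model in which blood supply to a leg is cut surgically. The labels used here name no Cre driver, strain, sex or age, so the cells in which the cluster was removed cannot be stated. The series title joins miR-181a/b and CXCR4 in a signalling axis of diabetic limb ischemia, and the question addressed with these chow libraries is whether transcripts of this axis differ between KO and flox marrow.

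CXCL12 is a chemokine made mainly by reticular stromal cells of the marrow, where it holds stem cells, B cell precursors and neutrophils that carry CXCR4. CXCR4 couples to inhibitory G proteins. After activation its tail is phosphorylated by receptor kinases, and arrestins then bind it, end G protein coupling and lead the receptor into the cell. ACKR3 binds the same ligand without classical G protein signalling and clears it, and DPP4 removes the first amino acids of CXCL12, which ends its activity on CXCR4.

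The deleted cluster encodes 2 microRNAs of the same family, shown here because their shared seed decides which of the 8 transcripts hold a matching site. In RefSeq (GRCm38.p6) miR-181a-5p of Mir181a-2 lies at chr2:38852741-38852763 and miR-181b-5p of Mir181b-2 at chr2:38853845-38853868, both on the plus strand. Both mature sequences also arise from a second cluster elsewhere in the genome. The capitals mark the seed, bases 2 to 8, written 5′ to 3′.
miR-181a-5p: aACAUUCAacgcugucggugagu
miR-181b-5p: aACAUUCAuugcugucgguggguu

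Seed matches in annotated 3' UTRs of coding transcripts were found in Arrb2 and Grk6 and in none of the other 6 members, among them the second arrestin gene Arrb1, whose longest coding 3' UTR was 5562 bases. The motif searched was TGAATGT on the transcript strand, called an 8mer when an A follows it. Arrb2 held an 8mer at chr11:70440506-70440513, present in 3 of its 5 coding transcripts, and a second match without the A at chr11:70440676-70440682, present in 1 of 5. Grk6 held an 8mer at chr13:55460093-55460100, present in 4 of its 6 coding transcripts. The sites are given on GRCm38, plus strand, with the match in capitals and 9 flanking bases on each side.
Arrb2 8mer: cgcaaggagTGAATGTAgagaaaagg
Arrb2 second match: taataggcaTGAATGTgtatgtgtt
Grk6 8mer: gtatttgtaTGAATGTAtatagctac
The longest coding 3' UTR was 644 bases for Cxcr4 and 5188 bases for Cxcl12, and neither held these letters. Of 14270 tested genes with a coding 3' UTR, 890 (6.24%) held an 8mer and 2705 (19.0%) held either kind of match. A match is a description of these letters and does not show that the microRNA acts there.

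The deletion could not be read from these libraries. Mir181a-2 and Mir181b-2 had 0 counts in all 7, and microRNA hairpins carry no poly(A) tail. Gm44144, a transcript on the opposite strand that spans Mir181b-2, had 5, 8, 4 and 2 counts in KO 1 to 4, against 0, 4 and 6 counts in flox 1 to 3. Of the genes around the locus, Nr6a1os had 23, 15, 15 and 18 counts in KO 1 to 4, against 12, 11 and 13 counts in flox 1 to 3. Its CPM did not overlap between groups (log2 fold change 0.63, edgeR adjusted p 0.396), as for 13.6% of all tested genes. Nr6a1 gave -0.33 (edgeR adjusted p 0.671). The ends of the deletion are not given in the labels.

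Total counts ran from 43110251 to 48320848 in KO and from 46151300 to 51688514 in flox. Summed over 11 marker genes of haematopoietic marrow, the libraries held 70339 to 85869 CPM in KO and 71451 to 81847 CPM in flox. The sum joins markers of opposite direction, 4 with a positive and 7 with a negative log2 fold change (0 passed in edgeR). Hbb-bs gave 0.39 and S100a8 -0.40, so alike sums do not show a like make-up of the marrow. CPM are edgeR's library-size-scaled counts, with sizes adjusted by the trimmed mean of M values (TMM). The extraction label names white adipose tissue. Summed over 7 adipose markers, the libraries held 28.2 to 60.9 CPM in KO and 33 to 80.6 CPM in flox, and the leptin gene Lep had 0 to 2 counts in KO and 0 in every flox library. Flox 1 stood apart on the first principal component (34.7% of variance), at -58.7, with 16.6 to 23.2 for the KO libraries and -14.2 and -5.48 for flox 2 and flox 3. The labels do not state whether each library is a separate animal. The p-values therefore reflect the spread among these 7 libraries, part of which could be technical.

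Per transcript length, Gnai2 and Cxcr4 were the most abundant members and Ackr3 was close to undetected. Levels between genes are compared as RPKM, the CPM divided by the length of merged exons in kilobases, averaged over the 7 libraries with their range. Gnai2 stood at 278 RPKM (249 to 317), Cxcr4 at 207 (177 to 233), Arrb2 at 124 (96.5 to 152) and Grk6 at 72.8 (66.6 to 83.0). Arrb1 followed at 45.3 RPKM (34.6 to 56.6), Cxcl12 at 41.2 (24.4 to 83.1), Dpp4 at 6.29 (2.12 to 8.71) and Ackr3 at 0.0804 (0.0441 to 0.147). Each gene lay above the next one in all 7 libraries, with ranges that did not overlap, except that Arrb1 was above Cxcl12 in 4 of 7 and their ranges overlapped. In flox 1, Cxcl12, at 83.1 RPKM, also lay above Grk6. Among 14381 tested coding genes, Cxcr4 had a level at percentile 98.8 and Gnai2 at 99.2, while Ackr3 was at 4.23. Merged exons overstate the length of a gene whose long exons are rarely used, which lowers its level here, and Arrb1 (11175 bases) and Cxcl12 (8176 bases) are the longest members.

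**Figure D1:**
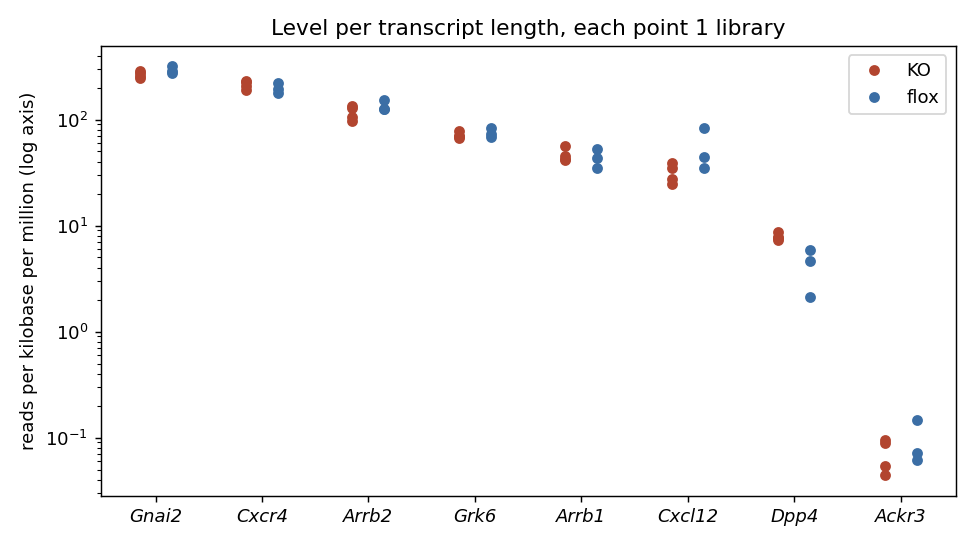
Level of each member in RPKM on a log axis, with 1 point per library, KO left of flox within each gene. Gnai2, at 249 to 317, lies above Cxcr4, at 177 to 233, in every library, and Ackr3 lies lowest, at 0.0441 to 0.147.

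None of the 8 members differed between KO and flox past the threshold of the test over all genes (edgeR quasi-likelihood test, adjusted p of 0.05). Of all 17920 tested genes 0.145% passed (26 genes, 24 higher and 2 lower in KO). Among the members 3 had a positive and 5 a negative log2 fold change, with a median of -0.10, against a median of -0.008 over all tested genes. Cxcl12 and Dpp4 had an unadjusted p under 0.05, as did 2520 of all tested genes. DESeq2 passed 1 member, Dpp4, at an adjusted p of 0.034, and called 2.21% of the 16516 genes to which it gave an adjusted p. Groups did not overlap in CPM for 1 member, Dpp4, as for 13.6% of all tested genes.

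**Figure D2:**
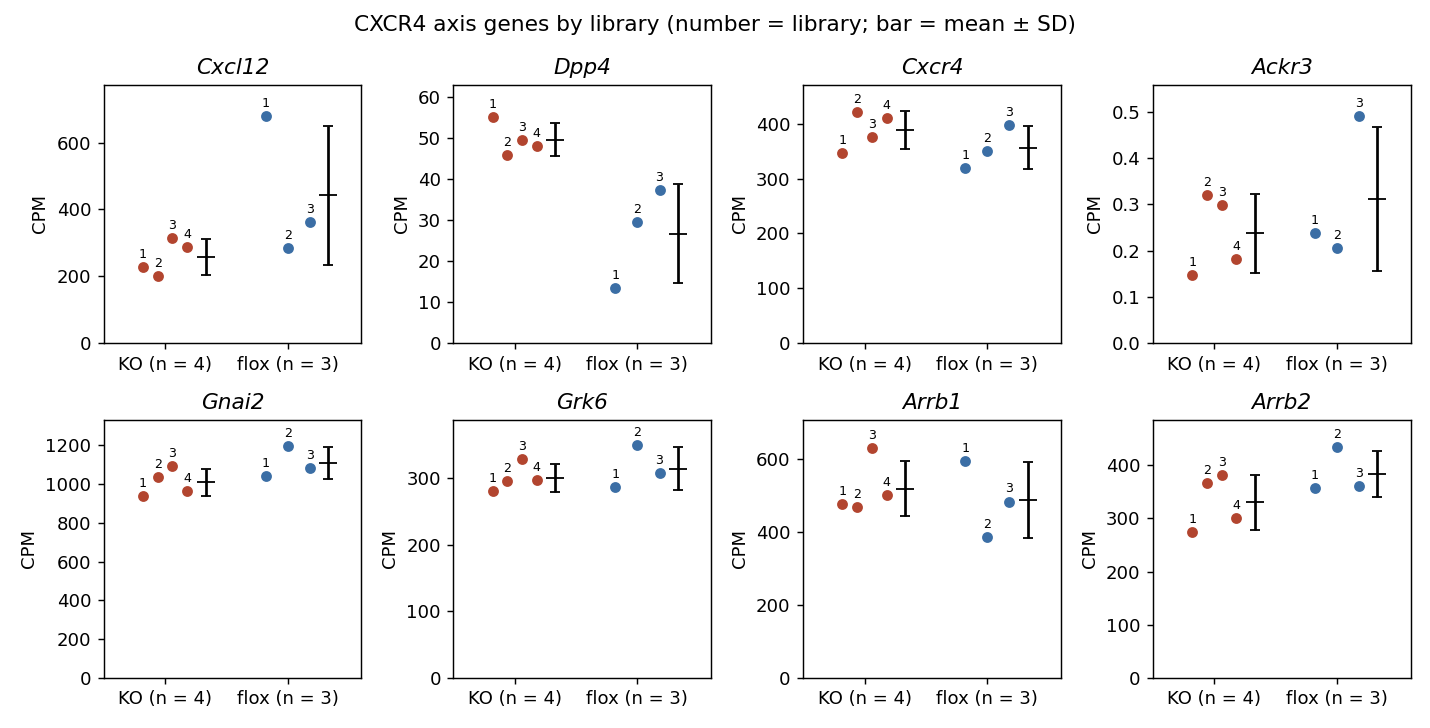
CPM of each member in the 4 KO libraries (left) and the 3 flox libraries (right), with library numbers beside the points and mean ± SD to their right. Only the Dpp4 points of KO (45.7 to 55.1) lie clear of flox (13.4 to 37.2), and flox 1 is the highest Cxcl12 point at 679.

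Cxcl12 (ENSMUSG00000061353, chr6:117168535-117181367, plus strand) had 227, 200, 315 and 288 CPM in KO 1 to 4, against 679, 285 and 362 CPM in flox 1 to 3. The KO values were lower on average, with flox 1 and flox 3 above every KO library and flox 2 among the KO values. The means were 257 ± 53.2 CPM in KO (SD, n = 4) and 442 ± 209 CPM in flox (SD, n = 3). The difference was -0.78 on the log2 scale (SE 0.32, 95% interval -1.54 to -0.022) with an edgeR adjusted p of 0.346, and an exact two-sided permutation test of the CPM means gave p = 0.0857, where 35 regroupings allow no p under 0.0286. Without flox 1 the log2 fold change was -0.33.

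Lepr, the leptin receptor gene that marks reticular stromal cells, varied across the libraries almost as Cxcl12 did. The 3 coding genes whose profile over the 7 libraries lay nearest to it were Lepr, Gas6, a ligand of TAM receptor kinases, and Stab1, a scavenger receptor of sinusoidal endothelium and macrophages. Their root mean square differences from Cxcl12, in centred log2 CPM, were 0.069, 0.079 and 0.093, where the median candidate of 11328 lay at 0.53. A flat profile, equal in all 7 libraries, would also lie at 0.53, so that median reflects the spread of Cxcl12 itself. Lepr had 11.9, 10.7, 14.8 and 14.2 CPM in KO 1 to 4, against 36.4, 13.8 and 18.3 CPM in flox 1 to 3, so it too was highest in flox 1. The ratio of Cxcl12 to Lepr, per length, was 16.4, 16.1, 18.3 and 17.5 in KO 1 to 4, against 16.1, 17.8 and 17.1 in flox 1 to 3. That ratio averaged 17.1 ± 1.03 in KO and 17.0 ± 0.855 in flox (SD, n = 4 and 3), and it was computed after the likeness had been seen, so it is a description with no test. All 9 reticular stroma markers had negative log2 fold changes (median -0.72) and 0 of 9 passed, in edgeR, DESeq2 or limma, with 5 at an unadjusted p under 0.05. Without flox 1 their median was -0.33, with 7 of 9 negative. Their summed level was 319 to 344 CPM in KO and 281 to 586 CPM in flox. It was lowest in flox 2 and highest in flox 1. Most of each sum was Vcam1 (258 to 282 CPM in KO, 212 to 442 CPM in flox, log2 fold change -0.19). The sums therefore follow Vcam1 more than the other markers. No marker of this list was at 0, and their part in the Cxcl12 difference was not tested. Endothelial markers had a median of -0.57 (8 of 9 negative, 0 passed, -0.25 without flox 1). Their sums were 131 to 141 CPM in KO and 121 to 185 CPM in flox. The largest part of these sums was Pecam1, the only positive marker (0.20), at 62.8 to 72.6 CPM in KO and 48.4 to 65.8 CPM in flox. Osteoblast markers had a median of -0.70 (8 of 9 negative, 0 passed in edgeR and 2 in DESeq2). Without flox 1 the osteoblast median was -0.74, with 8 of 9 negative. Their sums were 171 to 302 CPM in KO and 335 to 350 CPM in flox. In bulk marrow, fewer cells of a type and less RNA per cell cannot be told apart.

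**Figure D3:**
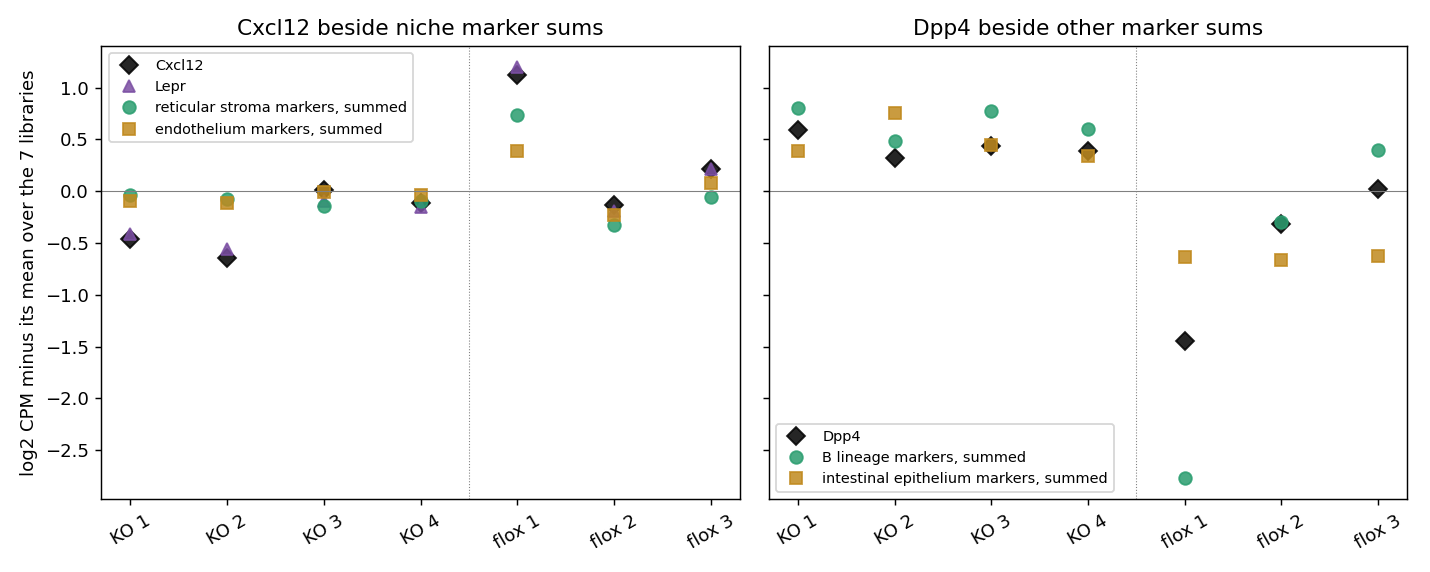
Log2 CPM of Cxcl12 (left) and Dpp4 (right) beside Lepr and summed marker genes in each library. Each series is centred on its own mean over the 7 libraries, with KO libraries left of the dotted line. Vcam1 makes up most of the reticular stroma sum, and Pecam1 is the largest part of the endothelium sum. Cxcl12 and Lepr overlie each other in every library and peak in flox 1. Dpp4 and the B lineage sum are lowest in flox 1, and the intestinal sum is 67.0 to 68.9 CPM across flox. The part of any of these cells or tissues in the Cxcl12 and Dpp4 differences was not tested.

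Dpp4 (ENSMUSG00000035000, chr2:62330073-62412231, minus strand) had 55.1, 45.7, 49.4 and 48.0 CPM in KO 1 to 4, against 13.4, 29.4 and 37.2 CPM in flox 1 to 3. Every KO value lay above every flox value, and flox 1 was lowest. The means were 49.5 ± 4.0 CPM in KO (SD, n = 4) and 26.7 ± 12.1 CPM in flox (SD, n = 3). The difference was 0.89 on the log2 scale (SE 0.32, 95% interval 0.14 to 1.65), and the edgeR adjusted p was 0.297. The exact two-sided permutation p was 0.0286, the smallest the design allows. Without flox 1 the log2 fold change was 0.57 and without flox 3 it was 1.21, each with an edgeR adjusted p of 0.152. An antisense gene, Gm13561, shares 232 exonic bases with Dpp4 and had 29, 37, 28 and 50 counts in KO 1 to 4, against 5, 18 and 21 counts in flox 1 to 3. No source used here states whether strand was used in counting, so reads from the shared bases cannot be told apart.

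Of 15 markers of intestinal epithelium, a tissue whose brush border carries DPP4, 11 passed the edgeR test as higher in KO. Of all tested genes, 0.145% passed in either direction. The marker list was chosen with earlier results of these data known, so these shares are a description with no test. The summed B lineage markers were higher in every KO library than in any flox library, without any of them passing. The 11 B lineage markers summed to 1014, 812, 994 and 876 CPM in KO 1 to 4, against 84.7, 473 and 763 CPM in flox 1 to 3. All 11 had positive log2 fold changes (median 1.07, and 0.55 without flox 1), 0 of 11 passed in edgeR, DESeq2 or limma with 2 at an unadjusted p under 0.05, and flox 1 was lowest for their sum as for Dpp4. The intestinal markers summed to 139, 179, 145 and 134 CPM in KO 1 to 4, against 68.2, 67.0 and 68.9 CPM in flox 1 to 3, with 14 positive values (median 1.14), and 8 markers passed without flox 1. The 4 that did not pass in all 7 libraries were Alpi (1.12), Fabp2 (1.09), Slc5a1 (1.1) and Lct, the lactase gene of the brush border, which had the only negative value (-0.39, edgeR adjusted p 0.373). The intestinal sum was nearly equal in the 3 flox libraries, among which Dpp4 spanned 13.4 to 37.2 CPM. No marker of either list was at 0, and the part of these tissues in the Dpp4 difference was not tested. T and NK cell markers, a population known to carry DPP4 as CD26, summed to 68.2 to 87.3 CPM in KO and 64.1 to 68.3 CPM in flox (6 of 8 positive, median 0.14, 0 passed in edgeR and 1 in DESeq2). The 3 profiles nearest to Dpp4 belonged to Arl5c (root mean square difference 0.075), Ablim1 (0.087), an actin-binding LIM protein gene, and Sdc4 (0.10), a heparan sulfate proteoglycan gene, with a median candidate at 0.68. A flat profile would lie at 0.65 from Dpp4.

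Cxcr4 (ENSMUSG00000045382, chr1:128588199-128592293, minus strand) had 346, 421, 376 and 411 CPM in KO 1 to 4, against 320, 350 and 398 CPM in flox 1 to 3. The groups overlapped, with KO 1 below flox 2. Its log2 fold change of 0.13 had a 95% interval of -0.10 to 0.35, that is, a KO level between 0.936 and 1.27 times the flox level (edgeR adjusted p 0.631). The value was 0.051 without flox 1 and 0.21 without flox 3. The nearest profiles, Tti2, a chaperone cofactor gene (0.032), Usp3, a deubiquitinase gene (0.038), and Satb1, a chromatin organizer of lymphocytes (0.041), had log2 fold changes of 0.14, 0.089 and 0.16. Per length, the ratio of Cxcr4 to Cxcl12 was 6.89, 9.54, 5.40 and 6.45 in KO 1 to 4, against 2.13, 5.55 and 4.98 in flox 1 to 3. KO 3 lay below flox 2 in this ratio, so the groups overlapped. These are levels in bulk marrow and not per cell. B lineage markers summed to 812 to 1014 CPM in KO and 84.7 to 763 CPM in flox. Mature neutrophil markers summed to 17685 to 22359 CPM in KO and 22011 to 31277 CPM in flox. The part of cell numbers in the Cxcr4 values was not tested.

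Ackr3 (ENSMUSG00000044337, chr1:90203980-90216751, plus strand), the scavenging receptor for the same ligand, had 7, 15, 14 and 8 counts in KO 1 to 4, against 12, 10 and 23 counts in flox 1 to 3. At this depth, its log2 fold change of -0.38 had a 95% interval of -1.36 to 0.59 (edgeR adjusted p 0.765), and it was 0.10 without flox 3. Cxcr4 exceeded it per length by 2326 to 4336 times in KO and 1500 to 3163 times in flox. Its nearest profile, H2-Q10, lay at 0.27 and the next, Gm10642 and Gm47283, at 0.27 and 0.29, each farther than the 3 nearest profiles of Cxcr4, Cxcl12 and Dpp4.

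**Figure D4:**
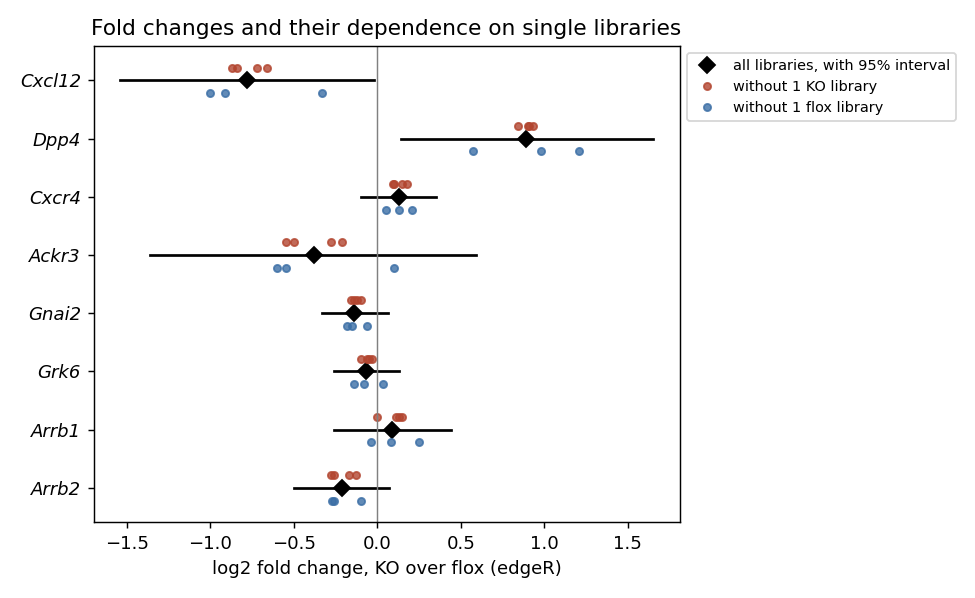
Log2 fold change of KO over flox for each member (diamond, edgeR) with its 95% interval, and the values with 1 KO library (upper points) or 1 flox library (lower points) left out. The intervals of Cxcl12 (-1.54 to -0.022) and Dpp4 (0.14 to 1.65) are wide, that of Cxcr4 (-0.10 to 0.35) is narrow, and flox libraries move Cxcl12, Dpp4 and Ackr3 most.

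Gnai2 (ENSMUSG00000032562, chr9:107614125-107635367, minus strand), the main inhibitory G alpha subunit of leukocytes, had 939, 1038, 1092 and 966 CPM in KO 1 to 4, against 1044, 1199 and 1084 CPM in flox 1 to 3. The groups overlapped (log2 fold change -0.14, 95% interval -0.33 to 0.061, edgeR adjusted p 0.535). Its paralogue Gnai3 had 220, 224, 190 and 200 CPM in KO 1 to 4, against 239, 260 and 232 CPM in flox 1 to 3. All KO values of Gnai3 were below all flox values, with a log2 fold change of -0.22 (SE 0.080) that did not pass (edgeR adjusted p 0.275). Groups did not overlap in either direction for 13.6% of all tested genes. Per length, Gnai2 exceeded Gnai3 by 3.69 to 4.95 times in KO and 3.77 to 4.04 times in flox, while Gnai1 averaged 0.317 RPKM in KO and 0.547 RPKM in flox.

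Of the desensitization genes among the members, Grk6 had the narrowest interval. Grk6 (ENSMUSG00000074886, chr13:55445072-55460927, plus strand), a receptor kinase that acts on the CXCR4 tail, had 280, 295, 329 and 297 CPM in KO 1 to 4, against 286, 349 and 308 CPM in flox 1 to 3. The ranges nearly coincided (log2 fold change -0.066, 95% interval -0.26 to 0.13, edgeR adjusted p 0.808), and without flox 2 the value was 0.031. Grk2 was the more abundant kinase per length, at 126 ± 5.26 RPKM in KO and 127 ± 12.7 RPKM in flox, and the ratio of Grk6 to Grk2 was 0.513 to 0.609 in KO and 0.566 to 0.603 in flox. Grk3 stood at 4.69 ± 0.521 RPKM in KO and 4.72 ± 0.258 RPKM in flox, and Grk5 at 2.61 ± 0.213 RPKM in KO and 2.64 ± 0.532 RPKM in flox (SD, n = 4 and 3).

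Arrb2 (ENSMUSG00000060216, chr11:70432635-70440828, plus strand), the arrestin gene that holds the seed matches, had 274, 367, 382 and 301 CPM in KO 1 to 4, against 357, 434 and 361 CPM in flox 1 to 3. KO 1 and KO 4 were lowest and flox 2 was highest, with overlap between the groups. Arrb2 shares 64 exonic bases with the microRNA gene Mir7115 on the same strand. Its log2 fold change was -0.21 (95% interval -0.50 to 0.071, edgeR adjusted p 0.494), and it was -0.10 without flox 2. Arrb1 (ENSMUSG00000018909, chr7:99535466-99606771, plus strand) had 477, 468, 632 and 501 CPM in KO 1 to 4, against 594, 386 and 484 CPM in flox 1 to 3. The groups overlapped, though KO 3 lay above every flox library and flox 2 below every KO library (log2 fold change 0.090, 95% interval -0.26 to 0.44, edgeR adjusted p 0.858). The value was -0.036 without flox 2, -0.0013 without KO 3 and 0.25 without flox 1. Per length, Arrb2 exceeded Arrb1 by 2.26 to 3.08 times in KO and 2.36 to 4.41 times in flox. In mean CPM Arrb1 was the higher in both groups, so this order rests on the merged exon lengths (11175 bases for Arrb1, 2845 bases for Arrb2).

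Neither gene with an 8mer, Arrb2 or Grk6, was higher in KO past the test, and their upper 95% bounds were 0.071 and 0.13 on the log2 scale. Over all tested genes, the median log2 fold change was -0.0052 for the 890 with an 8mer and -0.018 for the 11565 with neither kind of match.

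Other genes of the pathway were read in lists ordered by role, and 0 of their 81 tested genes passed in edgeR or limma, while 21 had an unadjusted edgeR p under 0.05 and 4 passed in DESeq2. Over all tested genes the share with an unadjusted p under 0.05 was 14.1%, and DESeq2 called 2.21%. The 4 were Rgs1, Ctsk, Elane and Klf2. Of 16 tested genes for G proteins and their regulators, 12 had negative and 4 positive log2 fold changes (median -0.14). Rgs1, a GTPase activator that dampens chemokine receptors, had 15.3, 15.8, 7.59 and 11.1 CPM in KO 1 to 4, against 8.43, 6.54 and 5.49 CPM in flox 1 to 3, with overlap at KO 3. The edgeR adjusted p was 0.239 at a difference of 0.87 on the log2 scale (SE 0.27). Rgs18, a regulator in megakaryocytes and myeloid cells, gave -0.39 (edgeR adjusted p 0.261). The 18 genes for receptor kinases, internalization and sorting had 15 negative values (11 without flox 1) with a median of -0.060, and the lowest p belonged to the ubiquitin ligase gene Nedd4 (-0.24), the sorting adaptor gene Stam2 (-0.12) and the early endosome GTPase gene Rab5a (-0.10).

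Of 26 downstream effector genes 25 had a negative log2 fold change (median -0.14, and 24 of 26 without flox 1), where 51.9% of all tested genes did, and 6 had an unadjusted p under 0.05. Rasgrp2, the exchange factor for RAP1, had 185, 186, 171 and 166 CPM in KO 1 to 4, against 205, 234 and 209 CPM in flox 1 to 3, without overlap (-0.28, SE 0.077, edgeR adjusted p 0.208). Groups did not overlap for 13.6% of all tested genes, and Rasgrp2 was named here for its low p. Rap1b, the small GTPase that RASGRP2 activates, gave -0.27 and the phospholipase gene Plcb2 -0.36 (edgeR adjusted p 0.231 and 0.220). These genes are also used by platelets and neutrophils, and the 7 mature neutrophil markers were all negative (median -0.28, 0 passed). Their sums were 17685 to 22359 CPM in KO and 22011 to 31277 CPM in flox. Most of each sum came from S100a8 and S100a9, which are also in the haematopoietic marrow list. S100a8 had 6388 to 7958 CPM in KO and 7899 to 11706 CPM in flox. S100a9 had 8812 to 11267 CPM in KO and 11071 to 16133 CPM in flox. The part of cell numbers in these values was not tested.

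Among 13 tested genes for other ligands, cofactors and proteases, 8 were negative and 5 positive (median -0.30). Ctsk, the osteoclast protease, had 11.3, 24.4, 22 and 17.2 CPM in KO 1 to 4, against 54.4, 36.7 and 32.6 CPM in flox 1 to 3, without overlap (-1.14, SE 0.29, edgeR adjusted p 0.220). Elane and Mmp9, proteases of neutrophils that can cut CXCL12, gave -0.59 and -0.30. Of 8 transcription factors reported to act on Cxcr4 or Cxcl12, 4 were positive and 4 negative (median 0.015). Klf2 had 168, 113, 136 and 101 CPM in KO 1 to 4, against 68.8, 89.5 and 97.7 CPM in flox 1 to 3 (0.60, SE 0.19, edgeR adjusted p 0.254), and every KO value was the higher. The groups of Ctsk and Klf2 did not overlap, as for 13.6% of all tested genes, and both were named for a low p. Gfi1, a repressor active in neutrophil precursors, gave -0.37, and Foxc1, which maintains reticular stromal cells, gave -0.73 with flox 1 highest at 6.25 CPM. Foxc1 and Ebf3 of this list are also among the reticular stroma markers above.

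**Figure D5:**
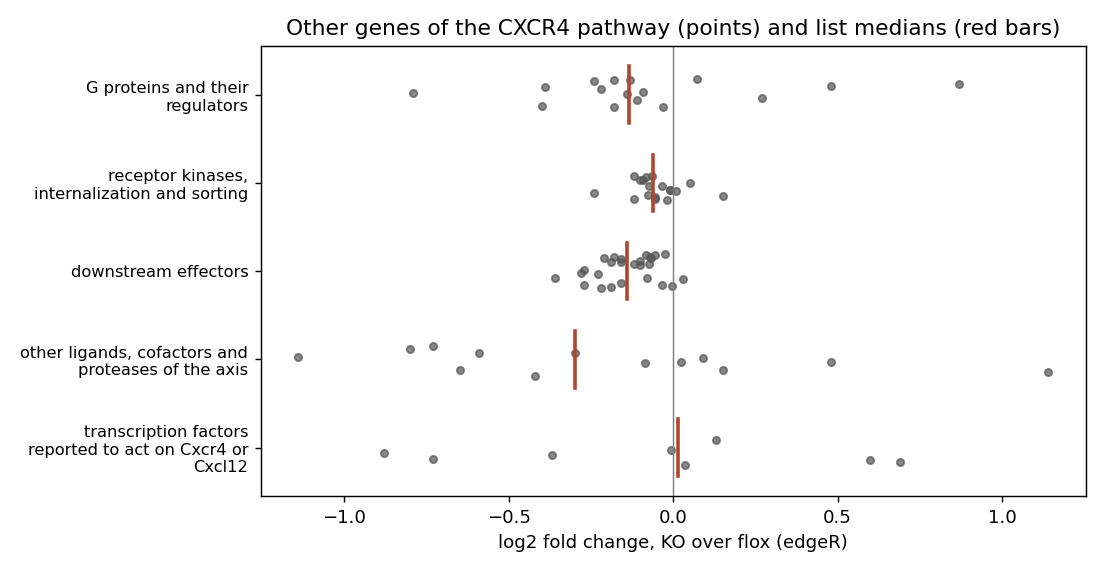
Log2 fold change of KO over flox for each tested gene of the 5 pathway lists (points, edgeR) with list medians (red bars), on 1 row per list. Downstream effectors cluster just below 0 (median -0.14), while the list of ligands, cofactors and proteases spreads most widely, with Ctsk lowest at -1.14, and no point passed the test.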

How the data were processed

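Poly(A)-selected RNA of 7 bone marrow libraries was analysed. The authors deposited raw read counts per Ensembl gene. The submitters' processing notes list Trimmomatic 0.36, STAR 2.5.2b, Subread 1.5.2 with its counter featureCounts, and the build GRCm38. No source used here gives the annotation release, the strand setting or the handling of multi-mapped reads.

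Columns were matched to samples by the library codes in the labels, with groups by genotype, and 0 columns were left unmapped. Names, positions and exon lengths came from GENCODE M21 on GRCm38 (49056 of 49315 IDs matched). Counts were filtered with filterByExpr (minimum count 10), TMM-normalized and fitted with robust glmQLFit (edgeR 4.0.16, R 4.3.3), and glmQLFTest compared KO with flox with Benjamini-Hochberg adjustment over all 17920 genes. Log2 CPM used a prior count of 2. Alternatives used DESeq2 1.42.0 and limma 3.58.1 (voom). No pair of libraries within a group agreed within sampling noise (chi-square per degree of freedom 19.0 to 90.6).

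Other named genes were up to 3 per pathway list by lowest p (mean log2 CPM 1 or more), Gnai and Grk paralogues for levels, and the 3 nearest coding profiles of Cxcr4, Cxcl12, Ackr3 and Dpp4. List counts without flox 1 were added after the data were seen. Members and lists were chosen with earlier results of these data known.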

Additional observations from a re-analysis of the deposited data

Results flagged for a closer look

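In 2 of the 27 genes examined for a library far from the others of KO, 1 library stood apart, and chance flags about 1 in 20 such groups of 4. Plcb2 had 153 CPM in KO 2, with 143 to 144 CPM in the other KO libraries. Grk3 had 34.1 CPM in KO 3, with 42.3 to 43.7 CPM in the other KO libraries. None of the 8 members of the axis was among them. The rule covered the KO libraries only, so the distance of flox 1 from the other flox libraries was not examined by it.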

How the results depend on the processing

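Of 135 values of the 8 members under 17 alternatives, 130 kept their direction and their side of the threshold. The exceptions were Dpp4 with DESeq2 (0.90, adjusted p 0.034), and sign changes of Ackr3 without flox 3 (0.10, against -0.38 with all libraries), Arrb1 without KO 3 (-0.0013) or flox 2 (-0.036) and Grk6 without flox 2 (0.031). With 1 library left out, Ackr3 ranged from -0.60 to 0.10, Arrb1 from -0.036 to 0.25 and Grk6 from -0.14 to 0.031. Ackr3 gave no value with at least 1 CPM in at least 3 libraries. The lowest edgeR or limma adjusted p for Dpp4 was 0.152. DESeq2 also passed Rgs1, Ctsk, Elane and Klf2, and the other 251 of 255 values of named pathway genes kept theirs. The count of 26 genes called over the table was 112 with no filter on low counts, 16 with non-robust dispersion, 13 with limma-voom, 365 with DESeq2 and 4 with the replicate block, and 2 to 14 with any library left out. Replicate numbers did not pair the libraries: the deviations of same-numbered libraries correlated at -0.0221, 0.0768 and 0.0228, and with the replicate block Dpp4 gave 1.01 and Cxcl12 -0.76. The cause of these shifts was not tested. Depth limits Ackr3, at 7 to 23 counts per library.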
